A study of Rattus norvegicus with 8 samples.

Results

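The unfolded protein response genes described here are Ern1, Eif2ak3, Xbp1, Atf4, Atf3, Ddit3, Hspa5, Hsp90b1, Dnajb9 and Herpud1. They were taken from the deposited expression table by gene symbol alone, and each of the 10 symbols matched 1 of the 31699 rows. The values are TPM, a measure of transcript abundance per transcript length in which every sample has the same total. They were measured by RNA-seq in annulus fibrosus cells (AFCs) of Sprague Dawley rats, the cells of the outer ring of the intervertebral disc. The 4 samples labelled Lv-Ctrl received a lentivirus with the empty hairpin vector (pLVX-shRNA-Puro), and the 4 labelled Lv-Piezo1 received the same vector with a short hairpin RNA against Piezo1, a stretch-activated cation channel. All 8 samples were exposed to cyclic mechanical stretch (CMS), so an unstretched level of these genes was not measured in them. The study pooled disc tissue of several rats for each isolation, used passaged cells, and describes the sequenced samples as 4 biological repeats of each treatment. It counted the differently treated cells of 1 isolation as 1 independent repeat, with at most 4 repeats. By that description an isolation would have given samples of both groups. The labels tie no sample to an isolation, so which Lv-Ctrl and Lv-Piezo1 samples shared one is not known here. The main fit uses no such pairing, and a fit with the replicate number as a block is given as an alternative.

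The endoplasmic reticulum (ER) folds secreted and membrane proteins, among them the collagens that annulus cells lay down. When unfolded proteins build up there, the sensors IRE1 (encoded by Ern1), PERK (Eif2ak3) and ATF6 are released from the chaperone BiP (Hspa5). IRE1 splices the Xbp1 transcript so that it encodes an active transcription factor, PERK phosphorylates eIF2alpha, which slows translation in general and favours translation of ATF4, and ATF6 is cut in the Golgi to release its own transcription factor. XBP1 and ATF6 raise chaperones and degradation genes, while ATF4 raises amino acid genes, ATF3 and CHOP (Ddit3), a factor linked to cell death under lasting stress.

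Piezo1 itself, the target of the hairpin, was not lower but higher in the libraries labelled Lv-Piezo1, at 37.7 to 41.4 TPM against 26.7 to 33.0 TPM (log2 fold change 0.38, SE 0.065, limma adjusted p = 8.6e-04). Lv-Ctrl and Lv-Piezo1 below are therefore the groups as labelled, and every direction rests on those labels. The fit covered the 13103 rows with a mean of at least 1 TPM, on log2(TPM + 1), where folds of low genes come out too small. Its median log2 fold change over all these genes was 0.14, higher in the samples labelled Lv-Piezo1, and median-ratio scaling of the samples moved that median to -0.0046. TPM keeps no sequencing depth, so how precise a value is can be judged only from the 4 samples of its group. Correlations across genes between samples of a group were 0.973 to 0.983. Of 10 markers of annulus cells and fibroblasts, 9 reached 1 TPM, Col1a1 and Col1a2 among them, while the tendon marker Tnmd stayed below 1 TPM in every sample. These markers summed to 6954 to 7837 TPM in the Lv-Ctrl samples and 10810 to 11544 TPM in the Lv-Piezo1 samples. They did not share a direction, since Col1a1 rose by 77.8% and Col1a2 by 63.9% while Dcn fell by 64.4% and Mkx by 42.7%. The 5 chondrocyte markers summed to 31.96 to 38.85 and 49.9 to 53.3 TPM, and the 4 notochord and nucleus pulposus markers with a row to 73.2 to 86.6 and 51.3 to 55.2 TPM, with Tbxt listed at 0 throughout. Most of these sums came from Acan (group means 31.6 and 47.1 TPM) and Foxf1 (77.6 and 50.1 TPM). The 5 smooth muscle markers summed to 297 to 308 TPM in the Lv-Ctrl samples, compared with 4314 to 4497 TPM in the Lv-Piezo1 samples, and 5 pericyte markers to 418 to 450 TPM and 158 to 172 TPM. The pericyte markers did not share a direction. By group means, Kcnj8 fell from 326.4 to 39.1 TPM and Abcc9 from 73.7 to 12.3 TPM. Cspg4 rose from 29.5 to 51.1 TPM and Mcam from 7.17 to 62.2 TPM, and Rgs5 stayed below 1 TPM. The 5 endothelial markers summed to at most 0.32 TPM, and of 5 macrophage and leukocyte markers 4 stayed below 1 TPM while Cd68 lay at 0.2 to 2.08 TPM in the Lv-Ctrl samples and 11.4 to 13.4 TPM in the Lv-Piezo1 samples. The part of these differences in the results below was not tested, and in bulk RNA fewer cells of a type and less RNA per cell cannot be told apart.

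The unfolded protein response genes did not move together. Ddit3 rose by 46.4% in the samples labelled Lv-Piezo1, while Atf3 fell by 33.1%, Dnajb9 fell by 26.4%, Xbp1 fell by 24.4% and Herpud1 fell by 18.7%. The abundant chaperones shifted little and in opposite directions, Hspa5 by -7.56% and Hsp90b1 by 11%, and the sensors Ern1 and Eif2ak3 did not pass the test. In the limma fit over all tested genes, 2 of the 10 genes passed upward (Benjamini-Hochberg adjusted p below 0.05) and 6 passed downward. The same held for 41.9% (higher) and 16.3% (lower) of all tested genes. None of the 10 reached the study's fold change threshold of 1 on the log2 scale in this limma fit, although 8 had an unadjusted p below 0.05 and 8 an exact permutation p below 0.05, and that threshold was passed upward by 4.91% and downward by 2.76% of all tested genes. In 2 genes all Lv-Piezo1 values exceeded all Lv-Ctrl values and in 6 the reverse held, against 39.8% and 14.5% of all tested genes. Their median log2 fold change was -0.12, beside 0.14 over all tested genes.

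**Figure D1:**
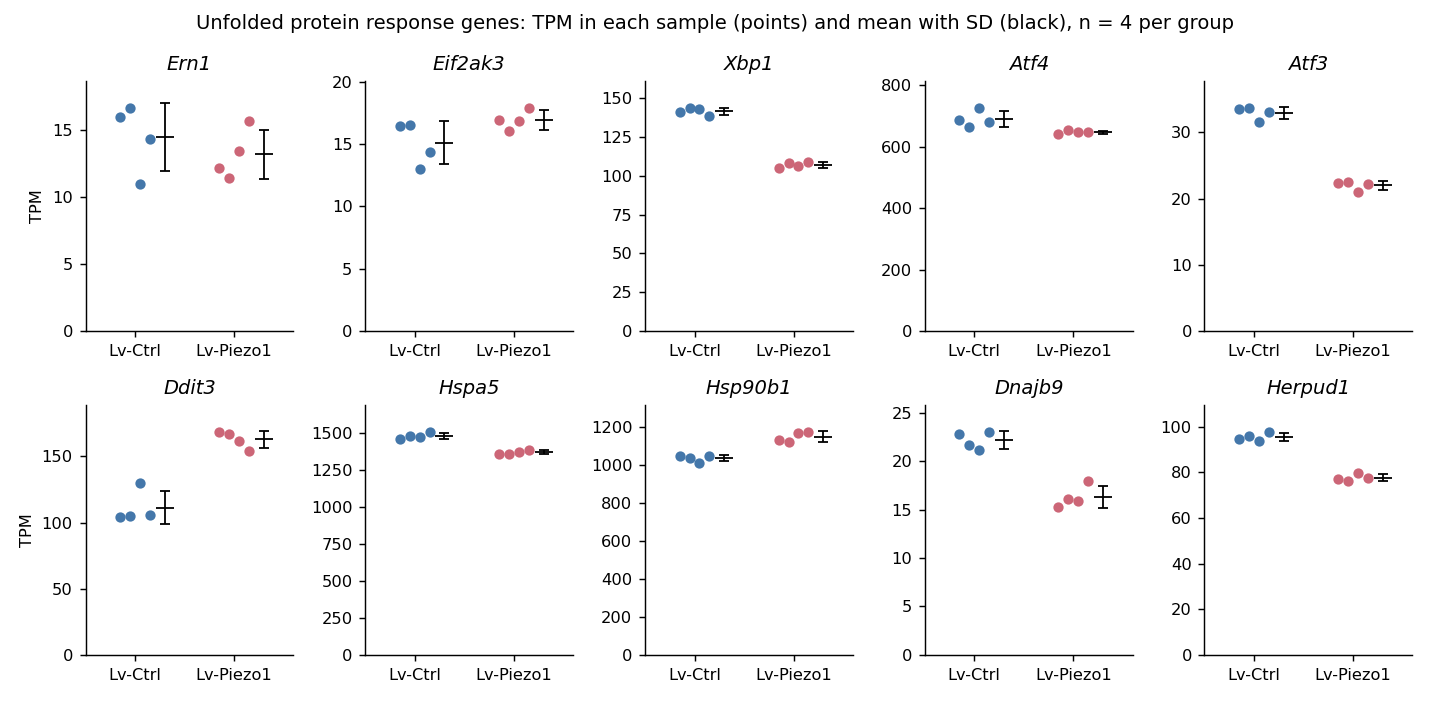
TPM (vertical axes, each from 0) of the 10 unfolded protein response genes in the 4 samples labelled Lv-Ctrl (blue points) and the 4 labelled Lv-Piezo1 (red points), with the mean and SD of each group in black. Atf3, Xbp1, Herpud1 and Dnajb9 sit lower and Ddit3 higher in the Lv-Piezo1 samples without overlap, while the points of Ern1 and Eif2ak3 overlap.

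After median-ratio scaling, which sets the typical gene to no change, 1 of the 10 genes was higher and 6 were lower, beside 27.9% of all tested genes in each direction. Ddit3, Atf3, Xbp1, Herpud1 and Dnajb9 kept their direction and an adjusted p below 0.05 under every scaling tried. Hsp90b1 depended on the scaling, with a log2 fold change of 0.15 on the deposited TPM, -0.01 once samples were scaled by median ratios and 0.20 under quantile normalization. Hspa5 went from -0.11 to -0.28 and to 0.01 under the same alternatives.

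**Figure D2:**
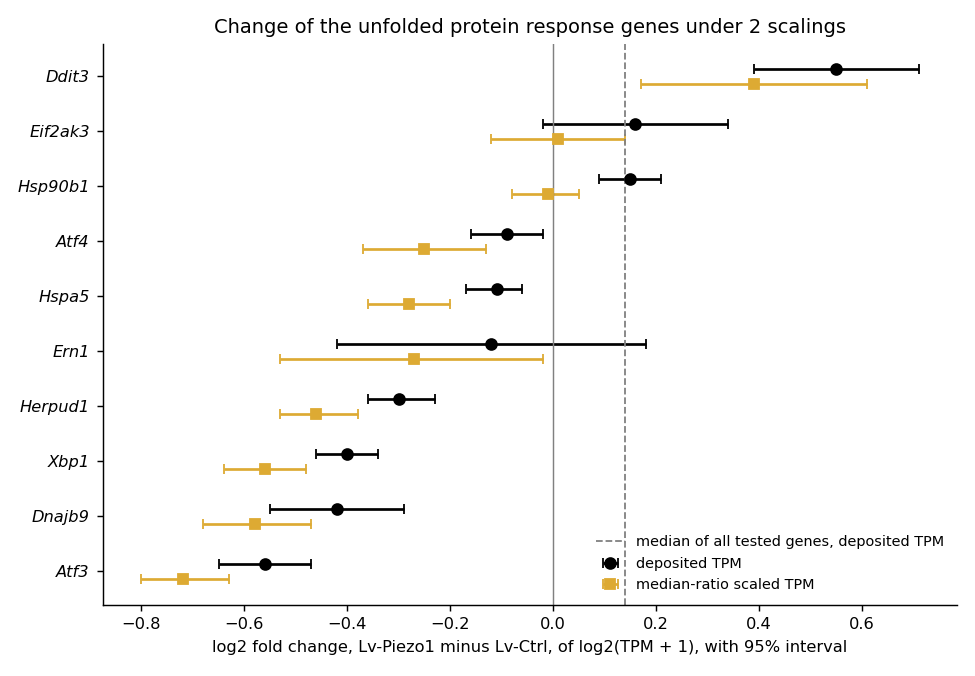
Log2 fold change of each unfolded protein response gene (horizontal axis, Lv-Piezo1 minus Lv-Ctrl, of log2(TPM + 1)) with its 95% interval from limma, for the deposited TPM (black circles) and after median-ratio scaling (yellow squares). The dashed line marks the median of all tested genes on the deposited TPM, 0.14, and Ddit3 is the 1 gene whose intervals lie above it under both scalings.

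The control regions of several of these genes carry a known signature of this response, shown here because members with the same element differed in direction on the deposited TPM. That difference rests on Hsp90b1, with a log2 fold change of 0.15 there and -0.01 after median-ratio scaling. The ER stress response element (ERSE) consists of CCAAT, 9 bases of any kind and CCACG, where NF-Y binds the first motif and ATF6 or XBP1 the last. The related ERSE-II consists of ATTGG, 1 base of any kind and CCACG. Both were searched on both strands in windows from 250 bases before to 50 bases after the RefSeq transcription start (assembly GRCr8), which were held for 8 of the 10 genes. ERSE was found in 22 of 33469 windows (0.0657%), 3 of them those of Hspa5, Hsp90b1 and Xbp1. ERSE-II was found in 17 windows (0.0508%), among them that of Herpud1. Ddit3 and Dnajb9 held a CCACG and a CCAAT on separate stretches but no exact match of either element. The search took exact letters only. In Ddit3, cgtgc stands 9 bases before the marked ATTGG, 1 letter off the CGTGG that an ERSE on the opposite strand would have there. In the upstream stretches below, capitals mark ERSE or ERSE-II for the first 4 genes, and the separate CCAAT and CCACG matches, on either strand, for Ddit3 and Dnajb9.
Hspa5: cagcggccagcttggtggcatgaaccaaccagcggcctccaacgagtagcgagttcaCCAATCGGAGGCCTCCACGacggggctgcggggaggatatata
Hsp90b1: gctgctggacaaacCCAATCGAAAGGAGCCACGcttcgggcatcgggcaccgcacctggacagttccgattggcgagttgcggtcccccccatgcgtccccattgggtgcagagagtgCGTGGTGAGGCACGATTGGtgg
Xbp1: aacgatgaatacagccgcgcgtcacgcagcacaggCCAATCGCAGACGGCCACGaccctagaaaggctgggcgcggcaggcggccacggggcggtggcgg
Herpud1: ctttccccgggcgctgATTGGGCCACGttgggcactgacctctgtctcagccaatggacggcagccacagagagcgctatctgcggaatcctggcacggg
Ddit3: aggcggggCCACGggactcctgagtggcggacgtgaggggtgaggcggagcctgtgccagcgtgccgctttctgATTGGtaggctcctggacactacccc
Dnajb9: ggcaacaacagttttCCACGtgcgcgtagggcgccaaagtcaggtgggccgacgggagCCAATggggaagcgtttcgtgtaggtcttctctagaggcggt

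These stretches lie at chr3:38452916-38453015 (plus strand, Hspa5), chr7:23012344-23012483 (minus, Hsp90b1), chr14:84604523-84604622 (plus, Xbp1), chr19:10614748-10614847 (minus, Herpud1), chr7:65001545-65001644 (plus, Ddit3) and chr6:67002072-67002171 (minus, Dnajb9) of GRCr8, all upstream of the first transcribed base. The ERSE of Hspa5 starts 43 bases before the start and that of Xbp1 65 bases before it. Hsp90b1 holds 1 ERSE on the gene's strand at -176 and 1 on the opposite strand at -72, and the ERSE-II of Herpud1 starts at -124. Further motifs were absent from the 8 windows: the 8 letters TGACGTGG bound by XBP1 and ATF6 (0.595% of all windows) and TGATGNAAT, a composite bound by C/EBP and ATF factors (1.09% of all windows). A match is a description of letters and shows neither binding nor its absence.

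**Figure D3:**
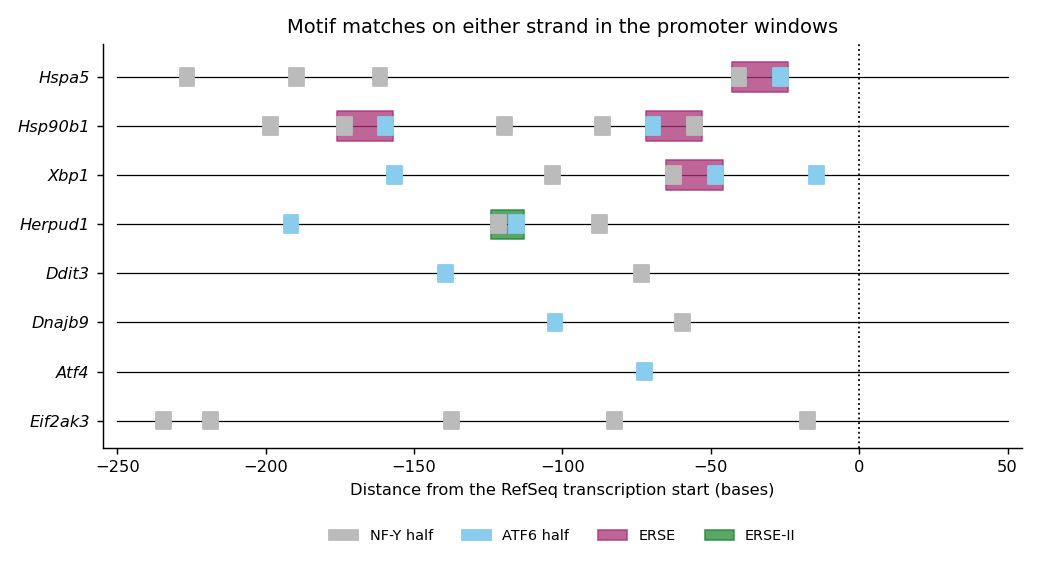
Positions of motif matches on either strand (horizontal axis, bases from the RefSeq transcription start) in the windows of 8 unfolded protein response genes. Purple boxes are ERSE, green is ERSE-II, and the small grey and light blue boxes are CCAAT (NF-Y) and CCACG (ATF6) found singly or inside an element. Exact matches of an element are drawn for Hspa5, Hsp90b1, Xbp1 and Herpud1 only.

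Among the sensors, Ern1 encodes IRE1, the kinase and RNase that splices Xbp1. In Lv-Ctrl replicates 1 to 4 it was at 15.99, 16.68, 11 and 14.39 TPM, and in Lv-Piezo1 replicates 1 to 4 at 12.2, 11.47, 13.47 and 15.66 TPM, the order in which the values of each gene are given. The groups overlapped, replicate 3 was the lowest Lv-Ctrl sample, and the log2 fold change was -0.12 with a 95% interval of -0.42 to 0.18 (limma adjusted p = 0.46). Without Lv-Ctrl replicate 3 it was -0.24 and without Lv-Ctrl replicate 2 it was -0.05, and over all samples left out in turn it stayed between these values without passing. It passed after quantile normalization (log2 fold change -0.30, limma adjusted p = 0.043) and not after median-ratio scaling (-0.27, limma adjusted p = 0.066). Eif2ak3, which encodes PERK, was at 16.48, 16.53, 13.04 and 14.37 TPM and at 16.92, 16.04, 16.87 and 17.91 TPM. These groups overlapped as well, with a log2 fold change of 0.16 and an interval of -0.02 to 0.34 (limma adjusted p = 0.11), and 0.10 without Lv-Ctrl replicate 3. Eif2ak3 and Ern1 were the least abundant of the 10 genes in the Lv-Ctrl samples, and their samples overlapped in level.

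The transcription factors of the response had higher mean levels than both sensors in each group and did not share a direction. Xbp1, the target of IRE1 splicing, was at 140.9, 143.63, 142.88 and 138.67 TPM in the Lv-Ctrl samples, compared with 104.82, 107.91, 106.39 and 108.89 TPM in the Lv-Piezo1 samples. No sample of one group came near the other, the means were 141.5 ± 2.22 and 107.0 ± 1.78 TPM (SD, n = 4 each), and the log2 fold change was -0.40 (SE 0.028, limma adjusted p = 2.9e-06). Spliced and unspliced Xbp1 share a row, so splicing cannot be read from these values.

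Atf4, the factor translated when eIF2alpha is phosphorylated, was at 685.22, 662.62, 725.7 and 681.29 TPM and at 641.69, 653.21, 646.9 and 646.01 TPM. The ranges did not overlap, with a gap of 9.41 TPM between the lowest Lv-Ctrl and the highest Lv-Piezo1 sample. Its log2 fold change was -0.09 (SE 0.032, limma adjusted p = 0.036), and the adjusted p rose to between 0.057 and 0.085 when any 1 of Lv-Ctrl replicates 1 and 4 or of the 4 Lv-Piezo1 replicates was left out. It was 0.086 with the replicate number as a block. After median-ratio scaling the fall was larger, at -0.25 (limma adjusted p = 0.003). ATF4 is controlled mainly by translation, which TPM does not measure.

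Atf3, a stress-induced factor downstream of ATF4, was at 33.48, 33.71, 31.62 and 33.04 TPM in the Lv-Ctrl samples, compared with 22.44, 22.47, 21.04 and 22.26 TPM in the Lv-Piezo1 samples. This was the largest fall among the 10 genes on the log2 scale, at -0.56 (SE 0.040, limma adjusted p = 3.4e-06), with means of 33.0 ± 0.937 and 22.1 ± 0.681 TPM (SD, n = 4 each). The gap between the groups was 9.15 TPM, wider than the range within either.

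Ddit3, which encodes CHOP, went the other way. It was at 104.25, 105.15, 130.29 and 105.69 TPM in the Lv-Ctrl samples, compared with 168.82, 167.27, 161.69 and 154.4 TPM in the Lv-Piezo1 samples. Lv-Ctrl replicate 3 stood above its group yet below every Lv-Piezo1 sample. The means were 111.3 ± 12.6 and 163.0 ± 6.53 TPM (SD, n = 4 each), with a log2 fold change of 0.55 (SE 0.072, limma adjusted p = 1.6e-04). Without Lv-Ctrl replicate 3 it was 0.63 (SE 0.035, limma adjusted p = 3.7e-06), and after median-ratio scaling 0.39 (SE 0.096, limma adjusted p = 0.0076). For each of the 8 genes without overlap the exact two-sided permutation test over 70 relabelings gave p = 0.029, the smallest that 4 samples against 4 allow.

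Ratios between genes of 1 sample do not change when the whole sample is scaled by 1 factor, as in median-ratio scaling. Quantile normalization can change them, and the ratios here are of the deposited TPM. The ratio of Ddit3 to Atf3 TPM was 3.11, 3.12, 4.12 and 3.20 in the samples labelled Lv-Ctrl and 7.52, 7.44, 7.68 and 6.94 in those labelled Lv-Piezo1, so CHOP transcripts were about 2.18 times as abundant relative to Atf3 in the latter. Ddit3 lay below Xbp1 in every Lv-Ctrl sample, with ratios of 0.732 to 0.912, and above it in every Lv-Piezo1 sample, with 1.42 to 1.61. Against Atf4, Ddit3 went from 0.161 ± 0.0124 to 0.252 ± 0.0102 (SD, n = 4 each). These pairs were chosen after the values were seen and are given without a test.

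Of the chaperones, Hspa5 encodes BiP, the HSP70 of the ER and the most abundant of the 10 genes. Its level was 1460.3, 1478.9, 1474.2 and 1508.3 TPM in the Lv-Ctrl samples, compared with 1359.5, 1354.6, 1373.4 and 1386.5 TPM in the Lv-Piezo1 samples. The groups did not overlap, and the log2 fold change was -0.11 (SE 0.024, limma adjusted p = 0.003). Hsp90b1, which encodes GRP94, the HSP90 of the ER, was at 1050.4, 1037.0, 1013.8 and 1051.8 TPM and at 1136.5, 1123.7, 1170.7 and 1178.7 TPM. Here every Lv-Piezo1 sample lay above every Lv-Ctrl sample, with a log2 fold change of 0.15 (SE 0.027, limma adjusted p = 0.0013) beside a median of 0.14 over all tested genes. The ratio of Hsp90b1 to Hspa5 TPM was 0.688 to 0.719 in the Lv-Ctrl samples and 0.830 to 0.852 in the Lv-Piezo1 samples. Both promoters shown above carry ERSE.

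Dnajb9 encodes ERdj4, a BiP co-chaperone induced by XBP1. It was at 22.8, 21.73, 21.16 and 23.07 TPM in the Lv-Ctrl samples, compared with 15.29, 16.1, 15.93 and 17.98 TPM in the Lv-Piezo1 samples. Replicate 4 was the highest of the Lv-Piezo1 samples and still below all Lv-Ctrl samples, and the log2 fold change was -0.42 (SE 0.057, limma adjusted p = 2.0e-04). Herpud1, which helps to assemble the ER-associated degradation machinery, was at 94.72, 95.65, 93.77 and 97.8 TPM and at 77.09, 76.1, 79.79 and 77.45 TPM. Its groups stood clear of each other, with a log2 fold change of -0.30 (SE 0.030, limma adjusted p = 3.3e-05).

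By level in the samples labelled Lv-Ctrl, the order was Hspa5, Hsp90b1, Atf4, Xbp1, Ddit3, Herpud1, Atf3, Dnajb9, Eif2ak3 and Ern1, and only the last 2 overlapped between neighbours. In the samples labelled Lv-Piezo1, Ddit3 stood above Xbp1, and Eif2ak3, Dnajb9 and Ern1 were neighbours that overlapped. The 10 genes summed to 3640.6 ± 26.8 TPM in the Lv-Ctrl samples, compared with 3584 ± 37.8 TPM in the Lv-Piezo1 samples (SD, n = 4 each), with 3612 to 3669 and 3549 to 3626 TPM as ranges that overlap. Hspa5 and Hsp90b1 together held 68.0% to 70.7% of this sum in every sample.

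The wider pathway was described with 138 further symbols in 10 lists, of which 134 had a row, in 135 rows because Fkbp11 has 2, and 132 rows passed the filter. Of these 132, 50 were higher (37.9%) and 31 lower (23.5%) at an adjusted p below 0.05, beside 41.9% and 16.3% of all tested genes. Past the fold threshold of 1 on the log2 scale, 3 rose and 1 fell, beside 4.91% and 2.76% of all tested genes. Their median log2 fold change was 0.06 on the deposited TPM and -0.10 after median-ratio scaling, when 26 were higher and 60 lower and the share of all tested genes was 27.9% in each direction.

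**Figure D4:**
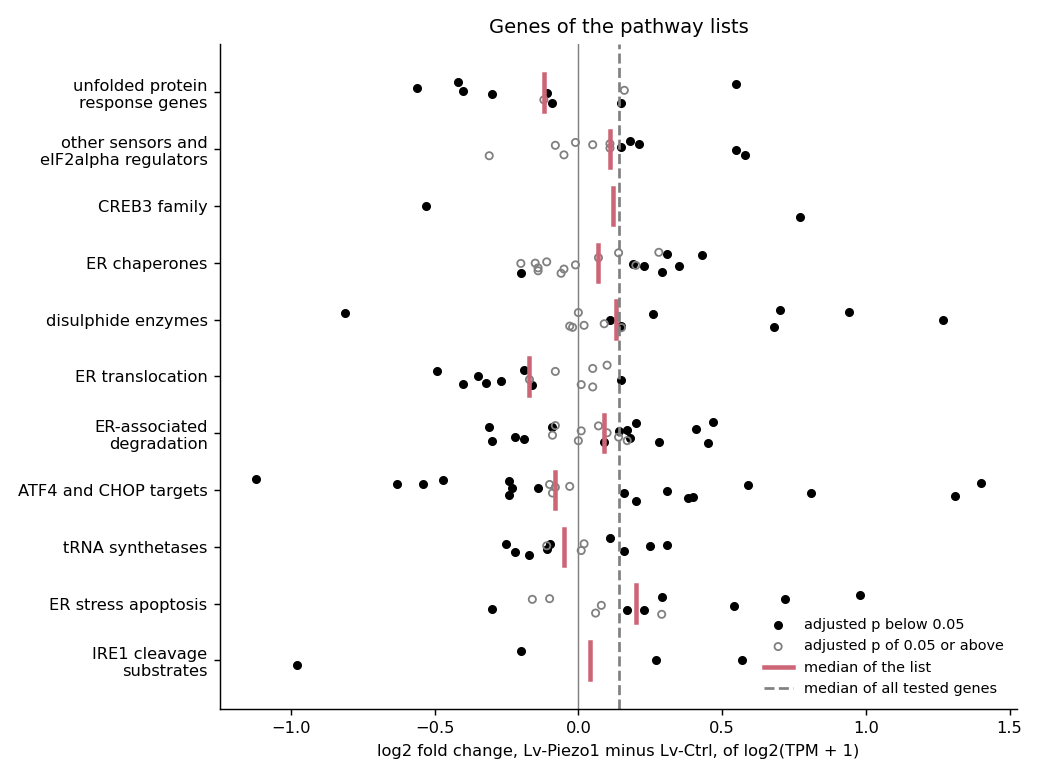
Log2 fold change (horizontal axis, Lv-Piezo1 minus Lv-Ctrl, of log2(TPM + 1)) of the tested genes of the unfolded protein response and of 10 further lists, filled where the limma adjusted p was below 0.05. Red bars are list medians, from -0.17 for ER translocation to 0.20 for apoptosis genes, and the dashed line is the median of all tested genes.

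The genes of the sensor ATF6 and of its relative ATF6B are not among the 10 genes, although targets of ATF6 such as Hspa5 are. Atf6 went from 25.7 ± 3.00 to 39.0 ± 4.09 TPM and Atf6b from 59.3 ± 3.01 to 87.5 ± 1.90 TPM (SD, n = 4 each), log2 fold changes of 0.58 and 0.55 (limma adjusted p = 6.4e-04 and 5.1e-06). Both also passed after median-ratio scaling and under quantile normalization. Of the other 10 genes in this list of sensors and eIF2alpha regulators, 3 were higher and 0 lower on the deposited TPM, and 0 higher and 3 lower after median-ratio scaling. The shares of all tested genes were 41.9% higher and 16.3% lower, and 27.9% each way after that scaling. Traf2, an IRE1 adaptor, rose by 0.21 on the deposited TPM and did not pass after median-ratio scaling (0.05). Ppp1r15a, the GADD34 subunit that directs a phosphatase to eIF2alpha and a CHOP target, was at 115.6 ± 13.0 and 114.5 ± 11.6 TPM (SD, n = 4 each, limma adjusted p = 0.92). Of the CREB3 family, membrane-bound factors related to ATF6, Creb3l1 fell from 116.7 ± 3.32 to 80.7 ± 1.33 TPM and Creb3l2 rose from 7.81 ± 0.708 to 14.0 ± 1.07 TPM (SD, n = 4 each), with log2 fold changes of -0.53 and 0.77 (limma adjusted p = 1.1e-06 and 2.7e-05).

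The targets of ATF4 and CHOP moved in both directions. Of 21 tested, 9 were higher and 8 lower, with a median log2 fold change of -0.08, where 41.9% and 16.3% of all tested genes were higher and lower. With median-ratio scaling 7 were higher and 11 lower, and their median was -0.24. Chac1, a glutathione-degrading enzyme induced by ATF4 and CHOP, was at 132.8, 129.85, 128.74 and 121.89 TPM in the Lv-Ctrl samples, compared with 57.66, 60.53, 57.4 and 57.89 TPM in the Lv-Piezo1 samples, a log2 fold change of -1.12 (SE 0.036, limma adjusted p = 2.2e-08). The groups stood far apart, and the change passed under both other scalings. Atf5, a related factor, fell by 0.63 and Gdf15, a secreted stress cytokine, fell by 0.47 on the log2 scale, from 1621 ± 66.6 to 1167 ± 30.2 TPM (SD, n = 4 each). In the other direction, Ddit4, an inhibitor of mTORC1, rose from 28.8 ± 0.506 to 77.8 ± 1.95 TPM, Cth, an enzyme of cysteine synthesis, from 7.81 ± 0.735 to 20.8 ± 1.87 TPM, and Pycr1, an enzyme of proline synthesis, from 23.2 ± 0.78 to 41.5 ± 2.62 TPM (SD, n = 4 each), with limma adjusted p of at most 1.7e-06. Trib3, an inhibitory pseudokinase induced by CHOP and named here after its values were seen, rose by 0.59 on the log2 scale (limma adjusted p = 4.3e-06). The ratio of Trib3 to Chac1 TPM was 0.159 to 0.191 in the Lv-Ctrl samples and 0.544 to 0.611 in the Lv-Piezo1 samples.

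**Figure D5:**
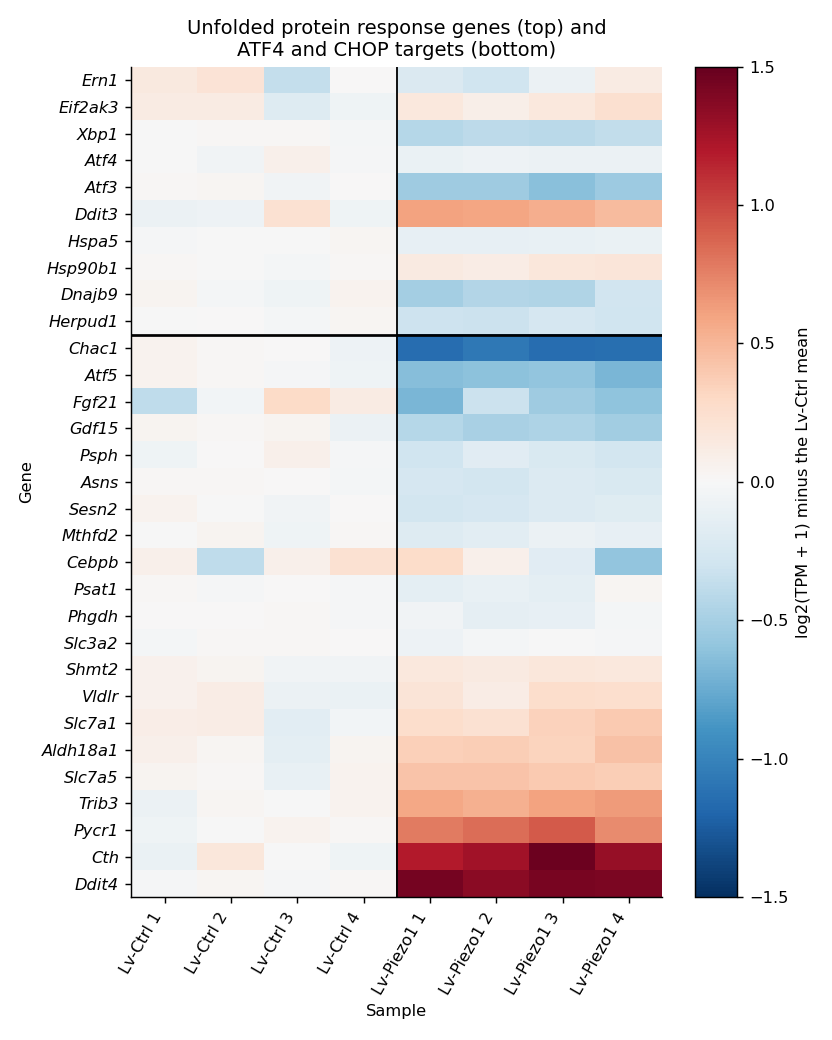
Log2(TPM + 1) minus the Lv-Ctrl mean (colour, blue lower and red higher) in each of the 8 samples, for the 10 unfolded protein response genes (top) and the 21 tested targets of ATF4 and CHOP (bottom, ordered by log2 fold change). The 4 Lv-Piezo1 columns resemble each other, with Chac1 (-1.12) and Ddit4 (1.40) at the ends, and Ddit3 is raised in Lv-Ctrl replicate 3 among the Lv-Ctrl columns.

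Protein folding genes and redox enzymes of the ER moved in both directions. Of 19 chaperone rows 6 were higher and 1 lower, but 2 were higher and 8 lower after median-ratio scaling. Of all tested genes, 41.9% were higher and 16.3% lower, and 27.9% each way after that scaling. Dnajb11, a BiP co-chaperone, rose by 0.43 and Creld2, an ER stress-inducible protein, by 0.35 on the log2 scale, while Dnajc3, another BiP co-chaperone, fell by 0.20 (limma adjusted p at most 0.0018). Dnajc1 rose by 0.31 and did not pass after median-ratio scaling. Calr, the lectin chaperone calreticulin, was at 1808.8 ± 68.3 and 1739 ± 26.7 TPM (SD, n = 4 each, limma adjusted p = 0.17). Of 14 disulphide enzymes, 7 were higher and 1 lower on the deposited TPM, beside 41.9% and 16.3% of all tested genes, and 5 were higher and 5 lower with median-ratio scaling. Pdia5, a disulphide isomerase, rose from 10.4 ± 1.23 to 26.3 ± 0.973 TPM, Ero1a, the oxidase that recharges disulphide isomerases and a CHOP target, from 24.9 ± 1.59 to 48.6 ± 3.93 TPM, and Qsox1, a sulfhydryl oxidase, from 52.5 ± 1.21 to 86.0 ± 1.23 TPM. Txndc12, an ER thioredoxin, fell from 314 ± 9.58 to 179 ± 7.53 TPM (SD, n = 4 each). The limma adjusted p of these 4 was at most 3.6e-06.

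Genes of entry into the ER had the lowest median of the 10 further lists. Of 14 translocation genes, 7 were lower and 1 was higher, beside 16.3% and 41.9% of all tested genes, with a median log2 fold change of -0.17. After median-ratio scaling 12 were lower and 0 higher, beside 27.9% of all tested genes in each direction. Sec62, a translocon component, fell by 0.49 and Ssr3, a subunit of the translocon-associated complex, by 0.40 on the log2 scale (limma adjusted p = 9.1e-06 and 1.7e-04). Sec61g, a channel subunit, fell by 0.35 (limma adjusted p = 0.020), with overlapping groups, and did not pass without Lv-Ctrl replicate 4, Lv-Piezo1 replicate 1 or Lv-Piezo1 replicate 3. Ssr1, the 1 higher gene at 0.15, was at -0.01 after median-ratio scaling.

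Of the 22 partners of Herpud1 in ER-associated degradation, 9 were higher (40.9%) and 5 lower (22.7%), and 4 higher and 9 lower after median-ratio scaling. Of all tested genes, 41.9% were higher and 16.3% lower, and 27.9% each way after that scaling. Derl3, a derlin, rose by 0.47, Edem2, a mannosidase-like protein, by 0.45 and Ube2g2, a ubiquitin-conjugating enzyme, by 0.41 on the log2 scale. Selenok fell by 0.31, Ufd1, a cofactor of the VCP segregase, fell by 0.30 and Erlec1, an ER lectin, fell by 0.22 (limma adjusted p of these 6 at most 0.0076). Of 12 tRNA synthetase genes, 4 were higher (33.3%) and 5 lower (41.7%), and after median-ratio scaling 0 were higher and 8 lower. The shares of all tested genes are those given above for the degradation genes. The log2 fold changes were -0.25 for Eprs, -0.22 for Sars1, -0.17 for Nars1, 0.16 for Aars1, 0.25 for Wars1 and 0.31 for Gars. Aars1, Wars1 and Gars did not pass after median-ratio scaling, and Nars1 did not pass without Lv-Ctrl replicate 4 or Lv-Piezo1 replicate 1 or 2.

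Among 12 apoptosis genes linked to ER stress, 6 were higher and 1 lower, beside 41.9% and 16.3% of all tested genes, and with median-ratio scaling 3 were higher and 1 lower. The list mixes genes that promote apoptosis with genes that oppose it. Of the higher genes, Mcl1 and Tmbim6 oppose it, with log2 fold changes of 0.17 and 0.23 (limma adjusted p = 0.0026 and 3.8e-04). Neither of them passed after median-ratio scaling. Bbc3, which encodes the BH3-only protein PUMA, rose from 4.81 ± 0.579 to 10.4 ± 0.386 TPM and Tnfrsf10b, a death receptor induced by CHOP, from 6.47 ± 1.76 to 11.2 ± 2.05 TPM (SD, n = 4 each), log2 fold changes of 0.98 and 0.72 (limma adjusted p = 7.7e-06 and 0.0069). Pmaip1, which encodes NOXA, rose by 0.29 on the deposited TPM and did not pass after median-ratio scaling (0.13). Bcap31, an ER protein cleaved in apoptosis, fell by 0.30 (limma adjusted p = 2.8e-04). Of 4 transcripts that IRE1 is known to cleave in other cells, Bloc1s1 fell from 201.0 ± 17.8 to 101.6 ± 13.3 TPM and Hgsnat by 0.20 on the log2 scale, while Pmp22 rose from 72.7 ± 3.39 to 108.3 ± 3.54 TPM and Scara3 by 0.27 (SD, n = 4 each, limma adjusted p at most 0.0016).

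Genes with ERSE or ERSE-II in the window other than the members were listed after the results were known, so they are described without a test. Of 26 such rows, 20 were tested, 13 were higher and 3 lower at an adjusted p below 0.05, beside 41.9% and 16.3% of all tested genes, and their median log2 fold change was 0.35. The range ran from -0.77 to 1.79. With the same element as Xbp1 (-0.40), Hnrnpa3 was at 1.79, Birc5 at 0.95, Ero1b at 0.68 and Derl3 at 0.47 on the log2 scale. Zfp57 was at 0.37, and Creld2 and Pan2 at 0.35. Lower were Dnajc3 (-0.20), Zfand2a (-0.52) and Ppm1l (-0.77), while Calr (-0.06), Canx (-0.14) and Ankmy2 (0.08) did not pass. With the element of Herpud1 (-0.30), Prkcz was at 1.01, Cdc45 at 0.81, Ggct at 0.58 and Dnajb11 at 0.43. Nucb1 was at 0.23 and Hyou1 at 0.19, and Cdc27 (-0.19) did not pass. After median-ratio scaling Nucb1 was at 0.07 and Hyou1 at 0.03. Prkcz and Cdc45 had low levels. Prkcz went from 0.655 ± 0.276 to 2.36 ± 0.648 TPM and Cdc45 from 1.96 ± 0.279 to 4.20 ± 0.52 TPM (SD, n = 4 each). Another row of Cdc45 was at 0 TPM in both groups and was not tested. Genes sharing an element thus lay on both sides of the median of all tested genes, with 13 of the 20 above it.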

How the data were processed

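RNA of AFCs under CMS was sequenced in 8 samples, with 4 in each labelled group. The authors mapped cleaned reads to the rat genome with HISAT2 and used StringTie to reconstruct transcripts. Per gene, the authors deposited TPM values rounded to 2 decimals, plus the mean of each group, which was not used. Their methods name FPKM, and how TPM was made and which rat annotation served are not given in the sources used here. The submitters' processing notes list the mouse build mm10, while the table's identifiers are rat genes. TPM is no count and keeps no depth, so no count model or counting interval was computed.

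Genes with a mean of at least 1 TPM over the 8 samples were fitted as log2(TPM + 1) with limma 3.58.1 in R 4.3.3 (empirical Bayes with a trend, Benjamini-Hochberg adjustment over 13103 genes), all samples without a block. The fit was tested on simulated data. Single genes were also compared by an exact two-sided permutation test in Python 3.11.15. Alternatives were a pseudocount of 0.1, no filter, at least 5 TPM, median-ratio scaling, quantile normalization, TPM without 37 mitochondrially encoded genes, no trend, the replicate block and leaving out each sample.

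The members and lists were chosen with earlier results of these data known. All 10 members are named, and in each other list up to 3 genes with the highest and 3 with the lowest log2 fold change among those with an adjusted p below 0.05 and a mean of at least 5 TPM. Genes outside this rule were chosen after their values were seen. They are Ppp1r15a, Calr, Trib3, Mcl1, Tmbim6, the markers, and those named only for ERSE or ERSE-II. The latter are Ero1b, Hyou1, Canx, Zfand2a, Ppm1l, Hnrnpa3, Birc5, Zfp57, Pan2, Ankmy2, Prkcz, Cdc45, Ggct, Nucb1 and Cdc27. Symbols Creb3, Srprb, Cebpg and Nupr1 matched no row and were not analysed here. Promoter sequences are those of RefSeq (GRCr8), matched by symbol.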

Additional observations from a re-analysis of the deposited data

Results flagged for a closer look

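In 108 groups of 4 samples (54 genes), 1 sample stood apart in 9, since its gap to the nearest of the others took up most of the group's range (Dixon's test at the 95% level). Chance alone marks about 1 in 20 groups. Ddit3 was highest in Lv-Ctrl replicate 3 at 130.29 TPM (nearest 105.7 TPM), and in the same sample Eprs (147.66 TPM), Nars1 (144.33 TPM) and Pmaip1 (45.86 TPM) were the lowest of their group. Lv-Ctrl replicate 4 was lowest for Atf6b at 54.82 TPM (nearest 60.74 TPM) and for Gdf15 at 1522.9 TPM. In the Lv-Piezo1 samples, Atf3 was lowest in replicate 3 at 21.04 TPM, Creb3l1 in replicate 1 at 78.75 TPM, and Chac1 was highest in replicate 2 at 60.53 TPM. For Ddit3, Atf3, Atf6b, Creb3l1, Chac1, Gdf15, Eprs and Pmaip1 these samples lay on the same side of the other group as their neighbours. For Nars1 the sample lay within the Lv-Piezo1 range of 134.92 to 147.34 TPM.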

How the results depend on the processing

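Each of the 10 genes was recomputed under 17 alternatives, and 157 of the 170 values kept their direction and their side of the threshold. The sign changed 3 times, for Hspa5 (0.01) and Eif2ak3 (-0.01) under quantile normalization and for Hsp90b1 (-0.01) under median-ratio scaling. Atf4 lost its adjusted p below 0.05 in 9 alternatives and Ern1 gained it in 1. The count of higher members was 1 after median-ratio scaling and 2 otherwise. Of the wider lists, 1 gene (Chac1) fell by at least 1 on the log2 scale, and 2 did after median-ratio scaling, after quantile normalization and without mitochondrially encoded genes. Leaving out 1 sample gave 1 to 2, with 2 when Lv-Ctrl replicate 2, Lv-Piezo1 replicate 1 or Lv-Piezo1 replicate 2 was left out. Genes of these lists rising by at least 1 numbered 3 in the main fit. They numbered 4 with a pseudocount of 0.1 and when Lv-Ctrl replicate 1 or Lv-Ctrl replicate 3 was left out. Same-numbered samples did not deviate together (correlations of -0.058 to -0.012 over genes). With 4 samples per group these correlations cannot tell whether same-numbered samples shared an isolation. With the replicate number as a block 2 members were higher and 5 lower, Atf4 being lost at an adjusted p of 0.086. The cause of these changes was not tested. The number of samples and the unknown depth limit precision, most of all for Ern1 and Eif2ak3 below 20 TPM.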
